A study of Homo sapiens with 4 samples.

Results

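The 38 genes described here encode DNA repair and damage checkpoint proteins that are linked to resistance against DNA-damaging drugs, and they were taken by name from a deposited table of 28277 genes. All 38 were found in the table and all 38 passed the filter on low counts. By pathway they comprise 10 homologous recombination genes, 7 damage signalling and checkpoint genes, 9 nucleotide excision repair genes, 3 Fanconi anaemia genes, 2 mismatch repair genes, 2 single-strand break repair genes and 5 non-homologous end joining genes. RNA was measured in NCI-H520 cells, an established lung squamous cell carcinoma line of wild-type genotype per its label. In 2 libraries (Hx1R8) the cells had received 10 µM Hx1R8 for 12 h. In the 2 libraries they are set against (Vehicle) the cells had received ultrapure water, also for 12 h. The series concerns SOX2 self-association and chemotherapy resistance, and the sources used here do not say what Hx1R8 is made of. In such bulk samples fewer expressing cells and less RNA per cell cannot be told apart.

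Cells meet different DNA lesions with different pathways. Double-strand breaks are rejoined directly by non-homologous end joining or copied from the sister chromatid by homologous recombination, in which BRCA1, BRCA2, PALB2, RAD51C and XRCC3 take part. Bulky adducts, such as those left by platinum drugs, are cut out by nucleotide excision repair, and crosslinks between strands call on the Fanconi anaemia proteins together with recombination. The kinases ATM and ATR sense breaks and stalled replication, and pass the signal to CHEK2 and CHEK1.

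The 4 libraries held 17259403 to 20920857 counts each. Vehicle replicate 2 stood apart: the chi-square per gene of its counts against the other libraries was 2.19 to 2.81, against 1.45 to 1.73 for pairs without it. The labels do not tie replicates to separate cultures. The p-values, standard errors and intervals below therefore rest on a spread between libraries that may be technical. Among squamous markers, SOX2 averaged 510 CPM in Hx1R8 and 528 CPM in Vehicle (CPM, counts scaled to library size with TMM factors), whereas KRT14 and DSG3 were at 0 in every library and KRT5 averaged 1.54 CPM in Hx1R8 and 1.67 CPM in Vehicle. The immune markers PTPRC, CD3E and MS4A1 and the endothelial marker PECAM1 were at 0 in every library. Others of these lists were detected. Of the 8 squamous markers 5 passed the filter on low counts, 2 with log2 fold changes above 0 and 3 below, from -0.18 to 0.595. The highest was that of TP63, a scarce transcript here at a log2 mean CPM of -0.889. By edgeR's test 2 of these 5 had an unadjusted p under 0.05, against 3.39% of all tested genes. Of the 8 immune markers 3 passed the filter on low counts, with log2 fold changes of -0.43 to -0.19. Of the 8 fibroblast and endothelial markers 2 passed it, with log2 fold changes of -0.54 to -0.08. Summed, the 8 squamous markers took 677 and 657 CPM in Hx1R8 against 688 and 664 CPM in Vehicle, the 8 immune markers 2.27 and 3.01 CPM in Hx1R8 against 3.49 and 3.58 CPM in Vehicle, and the 8 fibroblast and endothelial markers 8.07 and 8.73 CPM in Hx1R8 against 9.20 and 8.79 CPM in Vehicle. None of these markers passed the test.

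No DNA repair or checkpoint gene passed the test for a difference after Hx1R8. By edgeR's quasi-likelihood test with Benjamini-Hochberg adjustment over all 14482 tested genes, 0 of the 38 genes passed at 0.05, against 0.0207% of all tested genes, with 0 higher (0.0138% of all tested genes) and 0 lower (0.00691%). DESeq2 and limma-voom also called 0 of the 38. At an unadjusted p under 0.05 there was 1 of the 38, RAD51C, against 3.39% of all tested genes. Every one of the 38 had an adjusted p of 0.9999 by edgeR. With each library left out in turn the count among the 38 was 0 each time, while across all genes it reached 41 higher and 38 lower without Vehicle replicate 1, and 13 higher and 18 lower without Vehicle replicate 2. The median log2 fold change of the 38 genes was 0.02, and that of all tested genes was -0.0018. The 38 log2 fold changes ran from -0.19 (ERCC5) to 0.16 (RAD51C), and both ends moved by over 1.5 times with 1 Vehicle library left out, as given with each gene. The log2 fold change was above 0 for 23 and below 0 for 15, against 48.9% of all tested genes above 0.

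Most of these genes had narrow intervals, which rest on the spread between these libraries and may not cover separate cultures. For 37 of the 38 the whole 95% interval of the fold change was inside 1.5-fold in either direction, against 81.4% of all tested genes. For 32 it was inside 1.2-fold, against 57.6%, and DESeq2 bounded fewer of the 38 within 1.2-fold, as given with the processing. The 38 genes are more abundant than the typical gene, with a median of 61.7 CPM against 24.98 CPM for all tested genes, and intervals narrow with abundance. ERCC5, at 43 to 54 counts per library, was the 1 gene whose interval reached past 1.5-fold. Together the 38 genes took 5322 and 5312 CPM in Hx1R8, against 5249 and 5300 CPM in Vehicle.

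**Figure D1:**
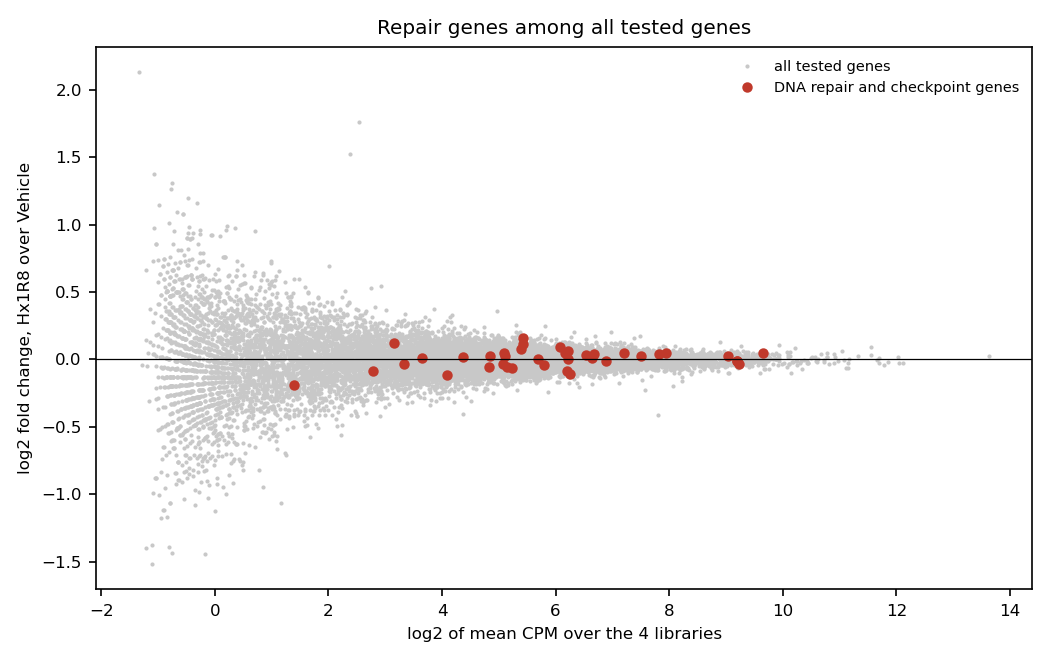
The y axis gives the log2 fold change of Hx1R8 over Vehicle and the x axis the log2 of the mean CPM over the 4 libraries, with 1 point per tested gene. The 38 DNA repair and checkpoint genes (red) lie between -0.19 and 0.16, inside the cloud of the 14482 tested genes (grey).

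For 14 of the 38 genes both Hx1R8 libraries lay on one side of both Vehicle libraries, against 29.8% of all tested genes. They lay above for 9 (14.7% of all tested genes) and below for 5 (15.2%). With 2 libraries against 2, an exact permutation test on a single gene cannot give a two-sided p below 0.333, so such separations are given as values only.

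Before treatment is considered, the levels of the 38 genes differed by more than 2 orders of magnitude. Levels between genes are given as CPM per kilobase of listed exon, with the mean of each group. The Ku genes stood first: XRCC6 was at 252 ± 4.02 in Hx1R8 and 254 ± 11.7 in Vehicle, and XRCC5 at 241 ± 5.43 in Hx1R8 and 234 ± 7.97 in Vehicle (CPM per kilobase, SD, n = 2 each). PARP1, which binds strand breaks and builds poly(ADP-ribose) chains, was at 147 ± 0.827 in Hx1R8 and 148 ± 4.23 in Vehicle, and DDB1, the adaptor of a ubiquitin ligase used in excision repair, at 139 ± 0.685 in Hx1R8 and 142 ± 11.9 in Vehicle (CPM per kilobase, SD, n = 2 each). The ranges of PARP1 and DDB1 over the 4 libraries overlapped, so their order is not settled, whereas both lay below the Ku genes and above all others of the 38 in every library. FANCI and MSH6 followed at means of 50.5 and 50.5 over the 4 libraries, with overlapping ranges. Over the same 4 libraries the median of the 38 genes was 11.0 CPM per kilobase, and 26 of the 38 exceeded the median of all tested genes, 6.52.

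The lowest levels per kilobase of listed exon belonged to ERCC5, RAD51B and RAD51D. RAD51B was at 0.978 ± 0.037 in Hx1R8 and 0.902 ± 0.038 in Vehicle, and RAD51D at 2.05 ± 0.047 in Hx1R8 and 2.03 ± 0.0007 in Vehicle (CPM per kilobase, SD, n = 2 each). ERCC5 was at 0.604 ± 0.011 in Hx1R8 and 0.689 ± 0.094 in Vehicle (CPM per kilobase, SD, n = 2 each), and most of its exon bases are shared with another listed gene, as described with the excision repair genes. These 3 did not overlap with each other over the 4 libraries. Just above them XRCC4, BRCA2, XPA, LIG4 and ERCC4 lay between 2.97 and 4.42 CPM per kilobase, each overlapping its neighbour in the order. This order depends on the listed exon length. RAD51D, with 10154 listed exon bases, averaged 20.9 CPM in Hx1R8 and 20.6 CPM in Vehicle. XRCC4, with 2100, averaged 6.64 CPM in Hx1R8 and 7.09 CPM in Vehicle. Over its unshared bases ERCC5 would be at 5.14 CPM per kilobase, above RAD51B and RAD51D. Which listed exons these cells use was not tested.

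**Figure D2:**
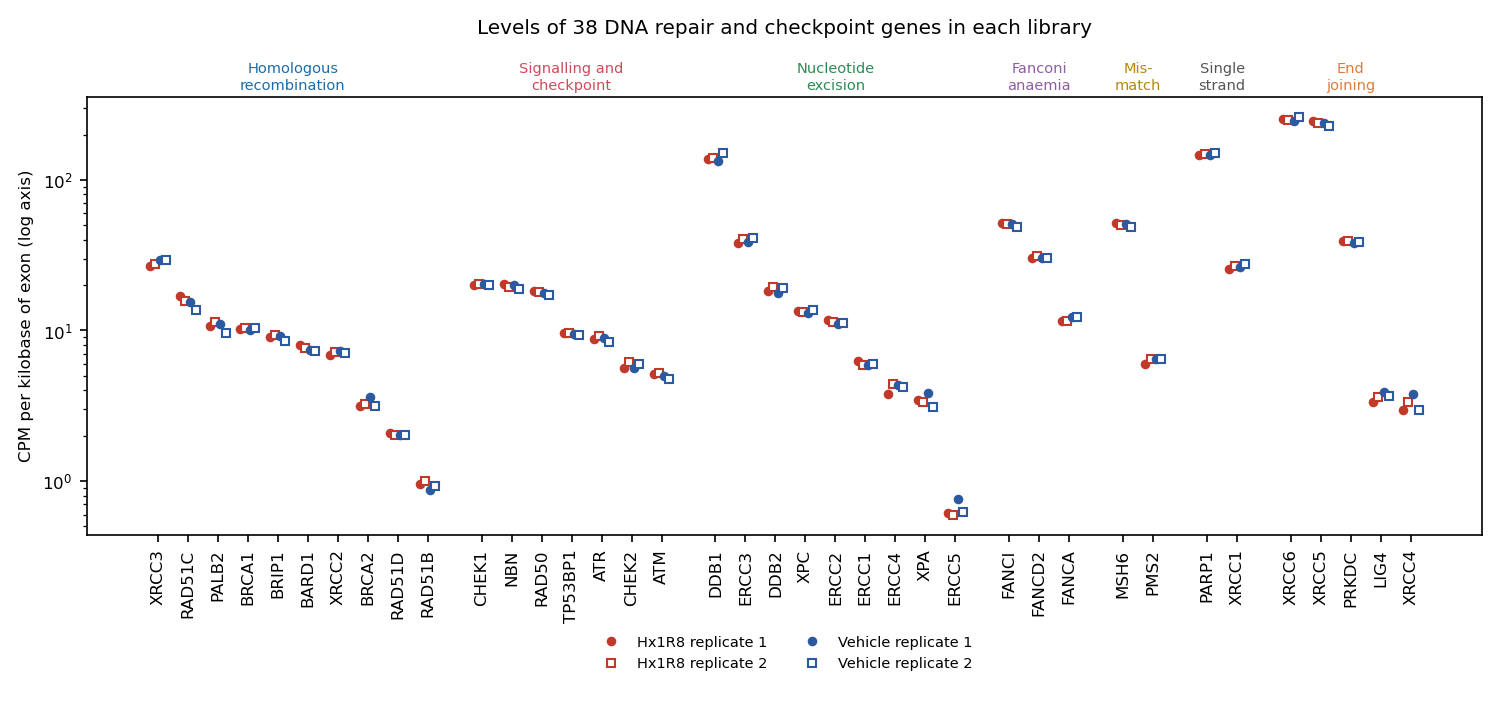
The y axis (log scale) gives CPM per kilobase of listed exon for each of the 38 genes, grouped by pathway along the x axis and sorted by level, with 1 point per library (red Hx1R8, blue Vehicle). The 4 points of a gene sit close together while genes range from 0.646 (ERCC5) to 253 (XRCC6) in mean level. The ERCC5 level is uncertain, because most of its exon bases are shared with another listed gene. Over its unshared bases it is 5.14.

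Homologous recombination genes held the highest fold change of the 38, that of RAD51C. None of the 10 passed the test, and their median log2 fold change was 0.04. RAD51C and XRCC3 encode proteins that bind each other in one complex and act in strand exchange. RAD51C (hg38 chromosome 17, 58692573 to 58735611, no exon base in common with another gene of the table) was at 47.3 and 43.5 CPM in the 2 Hx1R8 libraries, against 42.7 and 38.3 CPM in the 2 Vehicle libraries. Both Hx1R8 values lay above both Vehicle values, by the smallest margin between 43.5 and 42.7 CPM. Its fold change was 1.12 with a 95% interval of 1.02 to 1.23 (log2 0.16, SE 0.07, unadjusted p = 0.024), and edgeR's adjusted p was 0.9999. Without Vehicle replicate 2 its log2 fold change was 0.09, and without Vehicle replicate 1 it was 0.24, with an adjusted p of 0.113 in a range of 0.113 to 1.0 over its alternatives.

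XRCC3 (chromosome 14, 103697617 to 103715451) was at 71.8 and 74.9 CPM in Hx1R8, against 79.0 and 79.1 CPM in Vehicle. Here both Hx1R8 libraries were the lower ones. Its fold change was 0.929 with an interval of 0.859 to 1.004 (log2 -0.11, SE 0.06, edgeR adjusted p = 0.9999), and it ran from -0.14 to -0.08 on the log2 scale with each library left out. The ratio of RAD51C to XRCC3 per kilobase was 0.639 and 0.563 in Hx1R8, against 0.524 and 0.469 in Vehicle. This pair was put together after its values were known.

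The promoter windows of these 2 genes are shown because these partners lie at opposite ends of the recombination genes in fold change. Neither gene passed the test, and a link between window letters and fold change was not tested. Windows run from 250 bases before to 50 bases after a gene's start, from RefSeq on GRCh38.p14, and 34 of the 38 genes had one. Capitals mark every match, on either strand, to 8 motifs: E2F-type TTTCCCGC and TTTGGCGC, ETS-type CCGGAAGT, NRF1 core GCGCATGC, the CCAAT box CCAAT, the GC box GGGCGG, the TATA box TATAAA and the SOX core CCATTGT. Each motif was counted by itself, so a GC box that runs into TTTCCCGC letters counts for both.
RAD51C, chr17:58692323-58692622, plus strand: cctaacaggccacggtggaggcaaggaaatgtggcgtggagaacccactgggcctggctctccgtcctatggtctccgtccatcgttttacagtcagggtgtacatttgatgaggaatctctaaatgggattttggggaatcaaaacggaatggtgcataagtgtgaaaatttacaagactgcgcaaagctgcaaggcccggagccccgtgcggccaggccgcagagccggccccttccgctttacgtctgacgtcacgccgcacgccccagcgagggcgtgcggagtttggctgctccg
XRCC3, chr14:103715402-103715701, minus strand: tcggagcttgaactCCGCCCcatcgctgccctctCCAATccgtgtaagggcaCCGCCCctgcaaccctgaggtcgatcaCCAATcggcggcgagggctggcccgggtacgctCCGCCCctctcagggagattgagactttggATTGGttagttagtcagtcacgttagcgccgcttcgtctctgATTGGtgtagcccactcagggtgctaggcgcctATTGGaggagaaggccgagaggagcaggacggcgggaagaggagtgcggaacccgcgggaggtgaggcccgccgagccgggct

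The RAD51C window held none of the 8 motifs, and the XRCC3 window held 5 CCAAT boxes and 3 GC boxes. GC boxes were in 24 of the 34 windows (70.6%), against 44.6% of 27305 RefSeq windows of this length, and CCAAT boxes in 15 (44.1%, against 35.7%). The 27305 windows include genes that did not pass the low-count filter here, whereas all 34 genes passed it, so the 2 sets are unlike. The E2F-type letters TTTCCCGC were in 4 windows (XRCC2, XPC, FANCD2 and MSH6, 11.8% against 1.66% of all), and TTTGGCGC in 1 (XRCC6, 2.94% against 0.659%). ETS-type letters were in 6 windows (17.6% against 4.44%). The NRF1 core was in 3 (XRCC2, XRCC6 and LIG4, 8.82% against 3.27%). No window held the TATA or SOX letters, which 12.0% and 3.15% of all windows hold. Windows of the 34 genes had a median GC content of 64.3%, against 58.3% for all windows, and the motifs differ in their own GC content. For many of the 34 genes RefSeq's start differs from the outermost start in the deposited table. It lies 44963 bases upstream of that start for BRCA1, 3762 bases downstream for RAD51B and 132 bases downstream for XRCC6. A match is a string of letters and no evidence that a factor binds.

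RAD51B, whose protein joins RAD51C in another complex, was at 9.004 and 9.497 CPM in Hx1R8, against 8.29 and 8.79 CPM in Vehicle. Its groups did not overlap, yet its interval ran from 0.915-fold to 1.29-fold, and its log2 fold change of 0.12 became 0.08 without Vehicle replicate 1 or without Hx1R8 replicate 2. PALB2, which bridges BRCA1 and BRCA2, was at 43.2 and 46.0 CPM in Hx1R8, against 44.1 and 38.5 CPM in Vehicle. Vehicle replicate 2 alone was low, and the log2 fold change of 0.11 (SE 0.07) became 0.02 without that library and 0.21 without Vehicle replicate 1. BRCA2, a central mediator of recombination, was at 36.0 and 37.3 CPM in Hx1R8, against 41.0 and 35.8 CPM in Vehicle. Its groups overlapped, and its log2 fold change of -0.07 (SE 0.07) ran from -0.16 to 0.04 with each library left out. Per kilobase BRCA2 stood at 0.293 and 0.285 of PALB2 in Hx1R8 and at 0.327 and 0.327 in Vehicle, a pair put together after its values were known.

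BRCA1 and its partner BARD1 form a ubiquitin ligase that favours end resection. BRCA1 was at 74.0 and 75.5 CPM in Hx1R8, against 73.4 and 75.6 CPM in Vehicle, and its interval ran from 0.929-fold to 1.09-fold. BARD1 was at 43.6 and 42.2 CPM in Hx1R8, against 40.9 and 40.2 CPM in Vehicle (log2 0.08, SE 0.07). BRCA1 overlapped between the groups and BARD1 did not. Per kilobase the ratio of BRCA1 to BARD1 was 1.28 and 1.35 in Hx1R8, against 1.36 and 1.42 in Vehicle. BRIP1, a helicase that binds BRCA1, was at 74.4 and 76.8 CPM in Hx1R8, against 75.3 and 69.5 CPM in Vehicle, with overlap. XRCC2, of the same complex as RAD51B, was at 32.8 and 34.2 CPM in Hx1R8, against 34.7 and 33.8 CPM in Vehicle. RAD51D, which pairs with XRCC2, was at 21.2 and 20.5 CPM in Hx1R8, against 20.6 and 20.6 CPM in Vehicle. The groups of both overlapped.

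All 7 damage signalling and checkpoint genes had log2 fold changes above 0, from 0.01 to 0.09, against 48.9% of all tested genes. None of the 7 passed the test. Their median log2 fold change was 0.04, and with 1 library left out at a time NBN, CHEK1 and CHEK2 each took a value below 0. Vehicle replicate 2 was the lowest library for each of the 7 except CHEK2. Summed, the 7 genes took 604 and 602 CPM in Hx1R8, against 596 and 575 CPM in Vehicle. ATM, the kinase called to double-strand breaks, was at 69.5 and 70.1 CPM in Hx1R8, against 67.3 and 63.9 CPM in Vehicle. The groups did not overlap, at a log2 fold change of 0.09 (SE 0.06) and an interval of 0.981-fold to 1.15-fold. Vehicle replicate 2 was the low library, and the log2 fold change became 0.05 without it. ATR, its counterpart at stalled forks, was at 71.7 and 75.02 CPM in Hx1R8, against 72.9 and 68.9 CPM in Vehicle, with overlap. CHEK1, the kinase that ATR activates, was at 99.0 and 100.6 CPM in Hx1R8, against 100.1 and 97.8 CPM in Vehicle. CHEK2, activated by ATM, was at 12.0 and 13.1 CPM in Hx1R8, against 12.1 and 12.9 CPM in Vehicle. Both checkpoint kinases overlapped between the groups. Their intervals were 0.938-fold to 1.09-fold for CHEK1 and 0.870-fold to 1.17-fold for CHEK2. Per kilobase CHEK1 was 2.29 and 2.23 times ATR in Hx1R8 and 2.28 and 2.36 times ATR in Vehicle, and CHEK2 was 1.08 and 1.18 times ATM in Hx1R8 and 1.13 and 1.27 times ATM in Vehicle.

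RAD50 and NBN belong to the complex that tethers broken ends and activates ATM. RAD50 was at 151 and 148 CPM in Hx1R8, against 147 and 142 CPM in Vehicle, without overlap. NBN was at 96.7 and 91.7 CPM in Hx1R8, against 94.8 and 89.0 CPM in Vehicle, with overlap. Per kilobase NBN was 1.12 and 1.08 times RAD50 in Hx1R8 and 1.13 and 1.10 times RAD50 in Vehicle. TP53BP1, which shields ends from resection and so favours end joining, was at 104 and 103 CPM in Hx1R8, against 102 and 101 CPM in Vehicle. These groups did not overlap, and its log2 fold change was 0.04 (SE 0.05). TUBGCP4 on the opposite strand shares 3067 of the 10789 exon bases of TP53BP1, and without a stated strand setting reads there cannot be assigned to one of the 2 genes.

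Nucleotide excision repair genes scattered around no difference. None of the 9 passed, 4 had log2 fold changes above 0 and 5 below, and their median was -0.01. ERCC2 and ERCC3 are the helicases of the transcription factor complex that opens DNA around a lesion. ERCC2 was at 35.5 and 34.3 CPM in Hx1R8, against 33.6 and 33.7 CPM in Vehicle, without overlap and with an interval of 0.939-fold to 1.14-fold. ERCC3 was at 114 and 121 CPM in Hx1R8, against 115 and 123 CPM in Vehicle, with overlap. ERCC1 and ERCC4 form the nuclease that cuts on one side of the lesion, and ERCC1 has been studied as a marker of platinum resistance. ERCC1 was at 30.03 and 28.2 CPM in Hx1R8, against 28.2 and 28.7 CPM in Vehicle, and its interval ran from 0.918-fold to 1.13-fold. ERCC4 was at 25.8 and 29.9 CPM in Hx1R8, against 29.5 and 28.5 CPM in Vehicle. The groups of both overlapped, and Hx1R8 replicate 1 was the lowest library for ERCC4. Per kilobase ERCC1 was 1.65 and 1.34 times ERCC4 in Hx1R8 and 1.36 and 1.43 times ERCC4 in Vehicle. CD3EAP on the opposite strand shares 1593 of the 4761 exon bases of ERCC1.

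The damage sensors showed no separation between the groups. XPC, which recognises distorted helices, was at 52.0 and 51.4 CPM in Hx1R8, against 50.5 and 52.7 CPM in Vehicle. DDB2, which recognises ultraviolet lesions together with DDB1, was at 33.6 and 35.9 CPM in Hx1R8, against 32.9 and 35.6 CPM in Vehicle. DDB1 was at 588 and 593 CPM in Hx1R8, against 567 and 639 CPM in Vehicle. The 2 Vehicle libraries enclosed both Hx1R8 libraries for all 3 genes except that DDB2 reached its highest value in Hx1R8 replicate 2. The sign for DDB1 depended on which Vehicle library was kept. Its log2 fold change was -0.03 (SE 0.05) with all libraries, 0.06 without Vehicle replicate 2, and -0.11 without Vehicle replicate 1. In that last fit edgeR's adjusted p was 0.0793, the lowest of the 38 genes in any alternative, in a range of 0.0793 to 1.0 over those of DDB1. Per kilobase DDB1 was 7.63 and 7.19 times DDB2 in Hx1R8 and 7.50 and 7.81 times DDB2 in Vehicle. XPA, the scaffold that verifies the lesion, was at 10.0 and 9.78 CPM in Hx1R8, against 11.1 and 9.08 CPM in Vehicle, with overlap.

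ERCC5 encodes the nuclease that cuts on the other side of the lesion, and it had the lowest level of the 38. It had 43 and 51 counts in Hx1R8, against 54 and 44 in Vehicle, or 2.50 and 2.43 CPM in Hx1R8 and 3.09 and 2.54 CPM in Vehicle. Both Hx1R8 values were below both Vehicle values, by a smallest margin between 2.50 and 2.54 CPM, and the interval ran from 0.647-fold to 1.18-fold. Vehicle replicate 1 was the high library, and the log2 fold change of -0.19 became -0.047 without it and -0.32 without Vehicle replicate 2. Of its 4085 exon bases, 3571 are shared with the read-through gene BIVM-ERCC5 on the same strand, which itself had 0 and 2 counts in Hx1R8 and 0 and 0 in Vehicle. Divided by the 12.6% of bases shared with no other listed gene, its mean level over the 4 libraries was 5.14 CPM per kilobase, against 0.646 over all exon bases. How reads on shared bases were counted is not stated, so the level of ERCC5 is uncertain.

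Of the Fanconi anaemia genes, FANCD2 and FANCI form the clamp that ubiquitin locks onto crosslinked DNA, and FANCA is part of the ligase complex that attaches it. FANCD2 was at 179 and 185 CPM in Hx1R8, against 180 and 179 CPM in Vehicle, and FANCI at 252 and 249 CPM in Hx1R8, against 248 and 236 CPM in Vehicle. FANCD2 overlapped between the groups and FANCI did not. Their intervals were 0.951-fold to 1.09-fold for FANCD2 and 0.968-fold to 1.11-fold for FANCI. Per kilobase FANCD2 stood at 0.584 and 0.612 of FANCI in Hx1R8 and at 0.596 and 0.622 in Vehicle. FANCA was at 71.5 and 71.3 CPM in Hx1R8, against 75.6 and 76.3 CPM in Vehicle. Both Hx1R8 libraries were lower, with narrow spread inside each group, at a log2 fold change of -0.09 (SE 0.06, edgeR adjusted p = 0.9999) that ran from -0.09 to -0.08 with each library left out. ZNF276 on the opposite strand shares 1417 of the 6182 exon bases of FANCA. The FANCD2 window is shown as the only one of the 34 with both E2F-type and ETS-type letters.
FANCD2, chr3:10026187-10026486, plus strand: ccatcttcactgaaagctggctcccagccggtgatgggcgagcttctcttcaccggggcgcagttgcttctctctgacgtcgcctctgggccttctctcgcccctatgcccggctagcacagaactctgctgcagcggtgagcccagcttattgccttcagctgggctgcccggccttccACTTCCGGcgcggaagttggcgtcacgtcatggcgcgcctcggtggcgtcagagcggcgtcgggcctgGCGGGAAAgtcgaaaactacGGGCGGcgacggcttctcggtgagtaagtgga

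In mismatch repair, MSH6 takes part in finding mispaired bases and PMS2 in cutting the strand that carries them. MSH6 was at 232 and 226 CPM in Hx1R8, against 229 and 217 CPM in Vehicle, with overlap and an interval of 0.961-fold to 1.10-fold. PMS2 was at 33.5 and 35.65 CPM in Hx1R8, against 35.72 and 36.1 CPM in Vehicle. Its groups were set apart only by the step between 35.65 and 35.72 CPM, which is smaller than the spread between replicates of either group. PMS2 has many near-identical pseudogenes, and the 8 listed ones together held 691 and 775 counts in Hx1R8 and 700 and 690 in Vehicle, against 576 and 747 counts of PMS2 in Hx1R8 and 625 and 625 in Vehicle. The sources used here do not say how reads were divided among these copies, so the PMS2 level is uncertain.

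PARP1 and XRCC1 act at single-strand breaks, where PARP1 marks the break and XRCC1 is the scaffold for ligation. PARP1 was at 583 and 588 CPM in Hx1R8, against 578 and 602 CPM in Vehicle, and XRCC1 at 53.6 and 55.9 CPM in Hx1R8, against 55.1 and 57.7 CPM in Vehicle. Both overlapped between the groups. PARP1 is the target of PARP inhibitors, and its fold change was bounded between 0.931 and 1.06.

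Non-homologous end joining genes split into an abundant and a scarce set. XRCC5 and XRCC6 encode the Ku ring that slides onto broken ends, and PRKDC the kinase that Ku recruits. XRCC5 was at 829 and 803 CPM in Hx1R8, against 810 and 772 CPM in Vehicle, and XRCC6 at 592 and 579 CPM in Hx1R8, against 571 and 609 CPM in Vehicle. PRKDC was at 526 and 528 CPM in Hx1R8, against 513 and 524 CPM in Vehicle. PRKDC alone of these 3 did not overlap between the groups, and its interval ran from 0.953-fold to 1.08-fold. Per kilobase XRCC5 stood at 0.964 and 0.955 of XRCC6 in Hx1R8 and at 0.977 and 0.872 in Vehicle, so Vehicle replicate 2 was the library with the lowest ratio. The XRCC6 window is shown because its gene had the highest level per kilobase. It holds the E2F-type letters on the other strand at its end, 1 NRF1 core, 1 CCAAT box and 3 GC boxes.
XRCC6, chr22:41621045-41621344, plus strand: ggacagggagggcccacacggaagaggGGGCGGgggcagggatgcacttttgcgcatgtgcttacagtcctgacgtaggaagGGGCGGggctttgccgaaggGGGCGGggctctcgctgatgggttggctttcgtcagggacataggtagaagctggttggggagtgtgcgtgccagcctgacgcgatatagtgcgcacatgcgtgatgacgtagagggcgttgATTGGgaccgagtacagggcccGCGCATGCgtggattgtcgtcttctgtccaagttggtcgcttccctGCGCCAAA

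LIG4 and XRCC4, the ligase and its scaffold, were far below the Ku genes. LIG4 was at 15.7 and 16.8 CPM in Hx1R8, against 18.1 and 17.2 CPM in Vehicle, with both Hx1R8 libraries lower, a log2 fold change of -0.12 (SE 0.09) and an interval of 0.810-fold to 1.05-fold. The log2 fold change became -0.069 without Hx1R8 replicate 1 and -0.076 without Vehicle replicate 1. XRCC4 was at 6.27 and 7.02 CPM in Hx1R8, against 7.94 and 6.24 CPM in Vehicle, with overlap and an interval of 0.769-fold to 1.15-fold. Per kilobase, XRCC4 was 0.886 and 0.925 of LIG4 in Hx1R8 and 0.971 and 0.805 of LIG4 in Vehicle. None of the 5 end joining genes passed the test, and their median log2 fold change was -0.01.

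**Figure D3:**
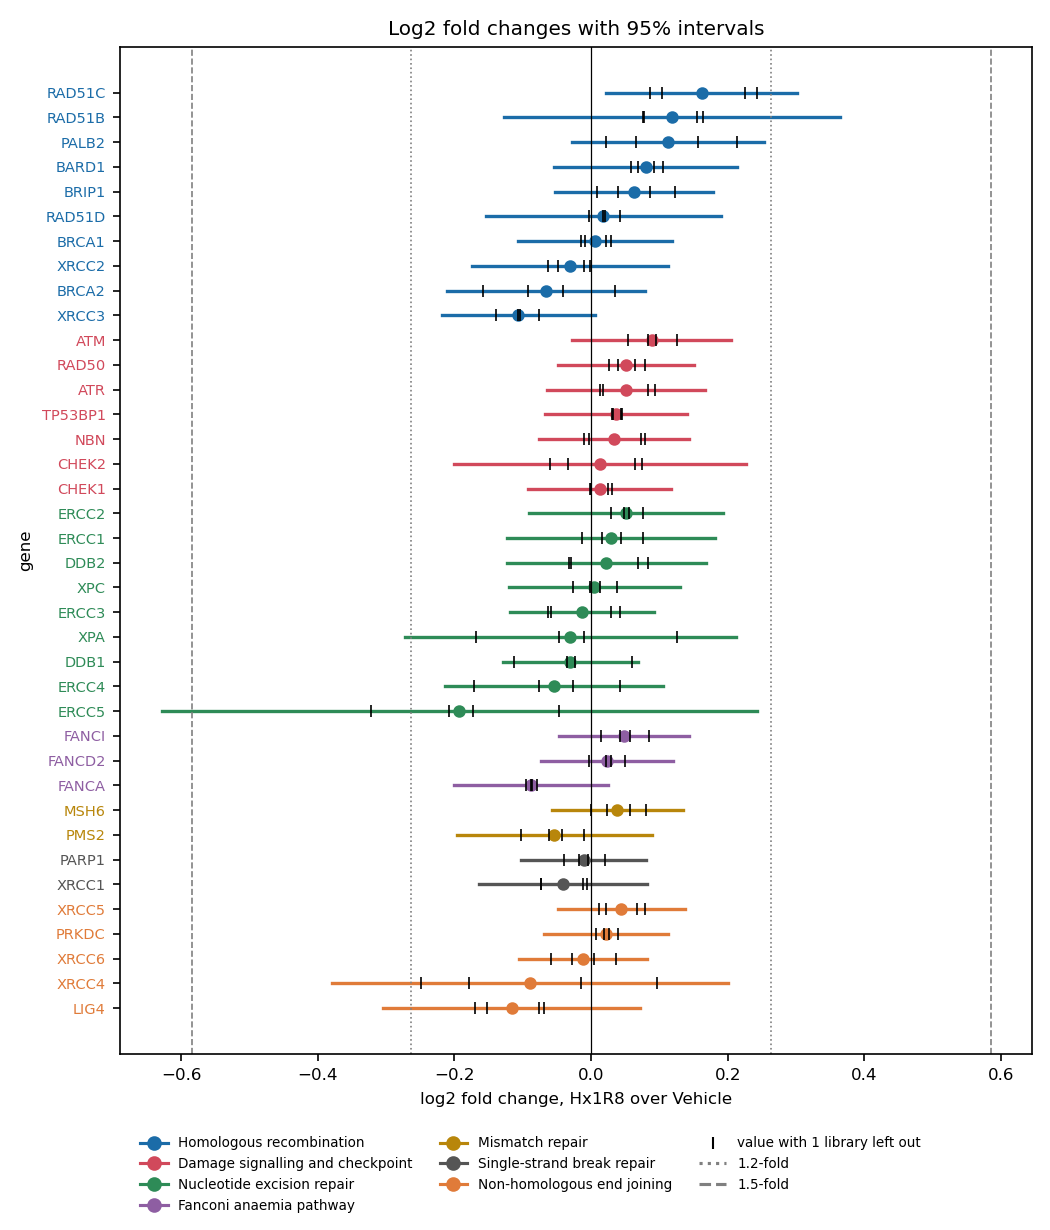
The x axis gives the log2 fold change of Hx1R8 over Vehicle for each of the 38 genes, coloured by pathway, with dots for all 4 libraries, bars for 95% intervals, short black ticks for values with 1 library left out, and dotted and dashed lines at 1.2-fold and 1.5-fold. Of the 38 bars 37 stay within the dashed lines, and the bar of RAD51C is the 1 that does not reach 0.

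Single libraries of one group differed by at least as much as the group means did. Over the 38 genes the median absolute log2 difference was 0.05 between the 2 Hx1R8 libraries, 0.07 between the 2 Vehicle libraries and 0.04 between the group means. Over all tested genes these values were 0.07, 0.10 and 0.05. A mean of 2 libraries varies less than a single library, so these measures are unlike and do not decide whether the groups differ. The library farthest from the mean of all 4 was Vehicle replicate 2 for 17 of the 38 genes (44.7%, against 34.01% of all tested genes). Farthest was Hx1R8 replicate 1 for 10 (26.32% against 21.25%), Vehicle replicate 1 for 9 (23.68% against 25.11%) and Hx1R8 replicate 2 for 2 (5.263% against 19.62%). For RAD51C, PALB2 and ATM Vehicle replicate 2 was low, and for DDB1 it was high.

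**Figure D4:**
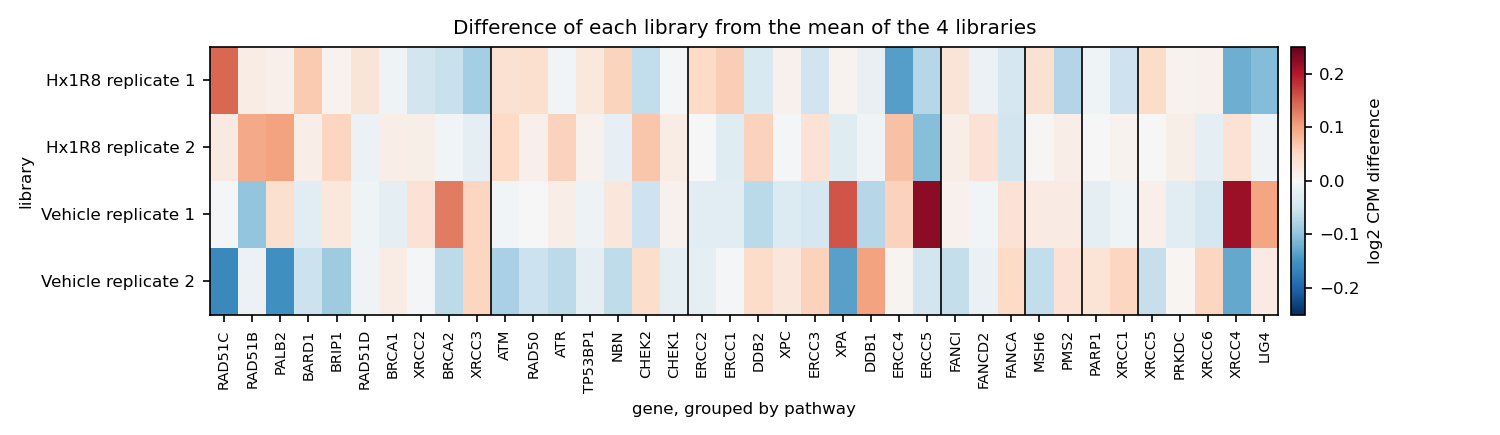
Rows are the 4 libraries and columns the 38 genes grouped by pathway, and colour gives the difference of log2 CPM from the gene's mean over the 4 libraries (red higher, blue lower). The 5 darkest cells belong to Vehicle libraries: ERCC5, XRCC4 and XPA are high in replicate 1, and RAD51C and PALB2 are low in replicate 2.

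Other repair genes were tested in the same fit. Of 141 other repair genes in the same and neighbouring pathways, 137 were tested, 0 passed in either direction with edgeR or DESeq2, against 0.0207% of all tested genes with edgeR. An unadjusted p under 0.05 was found for 8, against 3.39% of all tested genes, and the median log2 fold change was 0.02. The smallest p belonged to POLI, a polymerase that copies past lesions, at 29.5 and 28.2 CPM in Hx1R8 against 25.2 and 23.6 CPM in Vehicle (log2 0.24, SE 0.08, edgeR adjusted p = 0.9999). It was followed by TOP3A, a topoisomerase that dissolves recombination intermediates, at 60.6 and 61.2 CPM in Hx1R8 against 63.9 and 73.1 CPM in Vehicle (log2 -0.17, SE 0.06, edgeR adjusted p = 0.9999). The groups did not overlap for either gene. TOP3A passed only where Vehicle replicate 1 was left out and Vehicle replicate 2, the high library, was the sole control (log2 -0.26, edgeR adjusted p = 0.0063).

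Pathway by pathway, 0 of 31 other homologous recombination genes, 0 of 25 signalling genes, 0 of 18 excision repair genes, 0 of 18 Fanconi anaemia genes, 0 of 7 mismatch repair genes, 0 of 22 single-strand break and base excision repair genes, 0 of 6 end joining genes and 0 of 10 translesion and direct reversal genes passed. FANCE, a subunit of the Fanconi ligase complex, had the lowest log2 fold change of these at -0.28 (SE 0.11), with 11.5 and 10.6 CPM in Hx1R8 against 12.5 and 14.3 CPM in Vehicle. SHLD1, a subunit of the shieldin complex that protects ends, had the highest at 0.28 (SE 0.12), with 10.5 and 10.1 CPM in Hx1R8 against 8.52 and 8.38 CPM in Vehicle. WEE1, the kinase that holds back mitotic entry, was at 42.9 and 39.6 CPM in Hx1R8 against 37.7 and 36.4 CPM in Vehicle (log2 0.15, SE 0.07). Of the other genes with the lowest p in their list, GTF2H5 (0.18, SE 0.14) and CDK7 (0.12, SE 0.09) of the transcription factor complex used in excision repair, POLQ (0.13, SE 0.07), the polymerase of microhomology end joining, and FANCB (0.20, SE 0.10) had log2 fold changes above 0. So did the glycosylase NEIL3 (0.13, SE 0.10), the end-processing nuclease DCLRE1C (0.08, SE 0.08), the clamp loader RFC1 (0.06, SE 0.05) and the mismatch repair protein PMS1 (0.06, SE 0.08). Values were below 0 for SWI5, a mediator of recombination (-0.25, SE 0.10), for the demethylase ALKBH3 (-0.16, SE 0.07) and for the glycosylase NEIL1 (-0.14, SE 0.09).

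Readouts of the p53 damage response and of cell cycling gave no called gene either. Of 17 transcriptional targets of p53 that respond to DNA damage, 16 were tested and 0 passed, 8 were above 0 and 8 below, and none had an unadjusted p under 0.05. BAX, a death effector, was at 30.1 and 31.3 CPM in Hx1R8 against 33.5 and 32.0 CPM in Vehicle (log2 -0.09, SE 0.07). SESN1, a stress-induced metabolic regulator, was at 6.85 and 7.02 CPM in Hx1R8 against 6.69 and 5.55 CPM in Vehicle (log2 0.18, SE 0.14). All 12 proliferation markers were bounded within 1.2-fold, and together they took 3089 and 3076 CPM in Hx1R8 and 3051 and 3093 CPM in Vehicle. The proliferation genes with the lowest p were TYMS, which makes thymidylate (log2 0.12, SE 0.06), and MCM6, of the replicative helicase (log2 0.06, SE 0.05).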

How the data were processed

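The authors deposited raw counts of reads per gene, 1 column per library, with exon coordinates, strand and exon length per the file headers. The submitters' processing notes name STAR 2.7.9 and hg38, while neither the labels nor the files name the counting tool, the annotation or the strand setting. The table held 28277 genes after 2 lines holding 1 gene's broken row were left out. The test was edgeR 4.0.16 under R 4.3.3 (quasi-likelihood test, TMM factors of 0.998 to 1.0, filterByExpr, group as the only term, two-sided, Benjamini-Hochberg adjustment over 14482 genes, threshold 0.05), a procedure checked on simulated data. Intervals of 95% and standard errors came from that model, with 2 residual and 36.9 prior degrees of freedom. Per library, 3 counts equal 0.143 to 0.174 CPM, a floor that covers counting error only. Levels were CPM divided by exon kilobases.

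The members and lists were chosen with earlier results of these data known. All 38 members are named. Of the other lists, the 2 genes with the smallest unadjusted p per pathway or readout list were named. The untested genes under other observations and the RAD51C and XRCC3, BRCA2 and PALB2, and NBN and RAD50 pairs were chosen after values were seen. Alternatives were other normalizations and filters, DESeq2 1.42.0, limma-voom (limma 3.58.1), the replicate number as a block and leaving out each library.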

Additional observations from a re-analysis of the deposited data

How the results depend on the processing

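Over 12 alternatives, 0 of the 38 genes passed the threshold in any, and 431 of 456 recomputed log2 fold changes kept their sign and their side of the threshold. The other 25 changed sign, all of them with 1 library left out, and the cause was not tested. They belong to 18 genes, whose log2 fold changes over the 4 libraries left out in turn ran as follows: BRCA1 (-0.015 to 0.030), BRCA2 (-0.16 to 0.036), CHEK2 (-0.060 to 0.075), XPA (-0.17 to 0.13), XPC (-0.026 to 0.038), DDB2 (-0.033 to 0.083), XRCC4 (-0.25 to 0.10), CHEK1 (-0.0022 to 0.030), NBN (-0.0098 to 0.079), ERCC3 (-0.063 to 0.042), DDB1 (-0.11 to 0.060), MSH6 (-0.00012 to 0.080), PARP1 (-0.040 to 0.020), XRCC6 (-0.059 to 0.037), RAD51D (-0.0026 to 0.043), ERCC1 (-0.013 to 0.076), ERCC4 (-0.17 to 0.043) and FANCD2 (-0.0026 to 0.050). With 1 library left out, the lone sample of a group was assumed to vary like the other group, the median of the 38 genes ran from 0.0020 to 0.023, 22 to 31 of them were bounded within 1.2-fold, and 37 within 1.5-fold in each case. Across all genes the count of higher genes ran from 2 to 41 and of lower genes from 1 to 38, and of the 137 other repair genes 0 to 1 passed. DESeq2 called 1 gene higher across all genes, against 2, and bounded 23 of the 38 genes within 1.2-fold. With the replicate number as a block, 0 of the 38 and 0 of the other repair genes were called, and 2 genes higher and 1 lower across all genes. The libraries share only a number, and the deviations of same-numbered libraries correlated at 0.0316 across genes. Library groups did not overlap for 12 to 14 of the 38 genes over the normalizations and filters, and this count was not recomputed with 1 library left out. Low counts limit the precision for ERCC5, XRCC4, RAD51B and XPA.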

Other observations

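Several further repair genes were listed at or near 0 reads together with a near-complete overlap of their exons with other listed genes. ATRIP, the partner of ATR, had 17.1% of its exon bases to itself, the rest being shared with the read-through gene ATRIP-TREX1 or with TREX1, and averaged 0.447 CPM in Hx1R8 and 0.259 CPM in Vehicle. GTF2H2, a subunit of the excision repair helicase complex, had 6.14% of its exon bases to itself and averaged 0.206 CPM in Hx1R8 and 0.230 CPM in Vehicle. SLX1A, a nuclease subunit, shared all of its exon bases and had 0 counts in every library. These 3 did not pass the low-count filter, and how reads on shared bases were counted is not stated, so their levels are uncertain. Among the 38 genes described above, 11 shared exon bases with another listed gene, in 2 cases on the same strand (RAD51D and ERCC5).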
